A study of Arabidopsis thaliana with 12 samples.

Results

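Seed storage globulin and cupin genes were followed in Arabidopsis thaliana seedlings through 5 probe sets of the ATH1 array, out of 22746 probe sets tested. The members are AT1G03890, a cruciferin-type 12S globulin gene on chromosome 1, PAP85 (AT3G22640), a vicilin-like gene on chromosome 3, and the vicilin-like cupin genes AT2G28490 and AT2G18540 on chromosome 2 and AT4G36700 on chromosome 4. They were taken by locus, with earlier results of these data known, and each is read by 1 probe set that names that gene alone. The shares of all tested probe sets given below are thus a background and no test of the 5 genes as a set. The seedlings were 8 days old and belonged to 4 groups of 3 arrays. Line 2-8 of ESTpro:FUS3-strong, called FUS3 here, was grown on half-strength MS medium with 1.5% sucrose or without sucrose, and wild type (WT) was grown on the same media. Expression of FUS3 in line 2-8 is ectopic and was induced with 5 µM estradiol in the medium on which the seeds germinated. Estradiol is named for the medium of this line, while inducing conditions are described for WT as well, so whether WT received it is not settled by the labels. Every FUS3 array came from this line, so an effect of FUS3 and one particular to the line cannot be told apart. Arrays of a group are labelled biological replicates. The level of FUS3 itself was not analysed here.

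Seed storage proteins are made by the embryo during maturation as a reserve of nitrogen, carbon and sulphur for the seedling. The 12S globulins (legumin type, called cruciferins in Arabidopsis) and the 7S or vicilin type are both built from the cupin fold, a small beta barrel. They enter the endoplasmic reticulum as precursors and travel to the protein storage vacuole, where vacuolar processing enzymes cut the 12S precursors behind an asparagine. FUS3 is a B3-domain factor which, with ABI3, LEC2 and bZIP proteins, turns on storage protein genes in the maturing embryo, through RY elements and ACGT-type elements in their promoters. In vegetative tissue these genes are normally silent.

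The values are MAS5 signals, 1 linear intensity per probe set and array. Their trimmed mean was 1000.08 or 1000.09 on each array, array medians lay between 375 and 443, and the highest signal of an array lay between 45566 and 59169. Of 7 listed photosynthesis genes that mark green seedling tissue 6 were measured, and their summed signal was 83445 to 90620 in FUS3 with sucrose, 186116 to 195707 in FUS3 without sucrose, 168689 to 173885 in WT with sucrose and 183280 to 198622 in WT without sucrose. All 6 were lower in FUS3 than in WT with sucrose at an adjusted p under 0.05 in limma, against 19.6% of all tested probe sets, and the lowest single reading among them was 7365. The summed signal of the 2 measured of 3 listed root hair genes was 927 to 1143 in FUS3 with sucrose, 438 to 637 in FUS3 without, 571 to 631 in WT with sucrose and 245 to 299 in WT without. Besides the lower green signal, the FUS3 arrays with sucrose had the highest reading of the 25S ribosomal RNA control, 9915 ± 701 (SD, n = 3), against 2088 ± 478 in FUS3 without sucrose, 3491 ± 1023 in WT with sucrose and 2491 ± 455 in WT without sucrose. Their ratio of 3 prime to 5 prime actin signal was 21.3 to 22.2, against 13.0 to 19.2 on the other arrays. The other 3 prime to 5 prime ratios did not single out this group. For GAPDH its mean was 1.01, against 1.13 to 1.28 in the other groups, and for UBQ 2.28, against 2.17 to 2.59. The differences in green signal, ribosomal RNA and actin ratio run with the same group as the highest storage gene signals. Their part in the results below was not tested. In whole seedlings more cells with a transcript and more transcript per cell cannot be told apart.

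AT1G03890, whose product is a 12S globulin precursor, was read at 17641, 19568.5 and 19011 in FUS3 with sucrose and at 335, 471 and 459 in FUS3 without sucrose. In WT it was read at 2.48, 3.38 and 7.38 with sucrose and at 2.26, 4.14 and 7.32 without sucrose. The 3 FUS3 arrays of either medium lay above all WT arrays and did not overlap each other, while the WT groups overlapped and stayed close to 0. Directly beside it on the chromosome in the TAIR10.1 annotation lies CRU2 (AT1G03880), another cruciferin gene. CRU2 was not analysed here, and whether its transcript also binds the probes of AT1G03890 was not tested.

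PAP85, a vicilin-like storage protein gene, was read at 32045, 31940 and 32962 in FUS3 with sucrose and at 3828, 4165 and 3962 in FUS3 without sucrose. In WT it was read at 23.1, 30.2 and 36.5 with sucrose and at 55.5, 72.0 and 62.4 without sucrose. All 4 groups were separate, and the order of the media was opposite in the 2 lines: the arrays with sucrose were the higher ones in FUS3 and the lower ones in WT. In WT all readings of PAP85 were under 100, and with signals under 100 set to 100 no difference was left there. Over all tested probe sets, the arrays with sucrose lay above all those without in 27.6% in FUS3 and in 22.7% in WT. The arrays with sucrose lay below all those without in 21.6% in FUS3 and in 16.9% in WT.

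AT2G28490 was read at 23161, 25775 and 22985 in FUS3 with sucrose and at 1659, 1704 and 1540.1 in FUS3 without sucrose. In WT it was read at 42.6, 55.3 and 1.72 with sucrose and at 1.72, 12.1 and 12.1 without sucrose. The FUS3 groups were separate, whereas in WT with sucrose replicate 3 stood far below the other 2 arrays and overlapped with the group without sucrose. AT4G36700 was read at 10342, 10435 and 9827 in FUS3 with sucrose and at 1049, 1404 and 1672 in FUS3 without sucrose. In WT it was read at 8.26, 13.9 and 3.19 with sucrose and at 7.53, 7.14 and 2.28 without sucrose. Again the FUS3 groups were separate from each other and from WT, and the WT groups overlapped.

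AT2G18540 was the member with the lowest contrast between the lines. It was read at 149, 208 and 149.8 in FUS3 with sucrose and at 70.6, 42.1 and 59.99 in FUS3 without sucrose. In WT it was read at 34.7, 22.0 and 37.7 with sucrose and at 46.8, 42.0 and 30.5 without sucrose. The FUS3 arrays with sucrose lay above all others. FUS3 without sucrose and WT with sucrose each overlapped with WT without sucrose but not with each other.

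**Figure D1:**
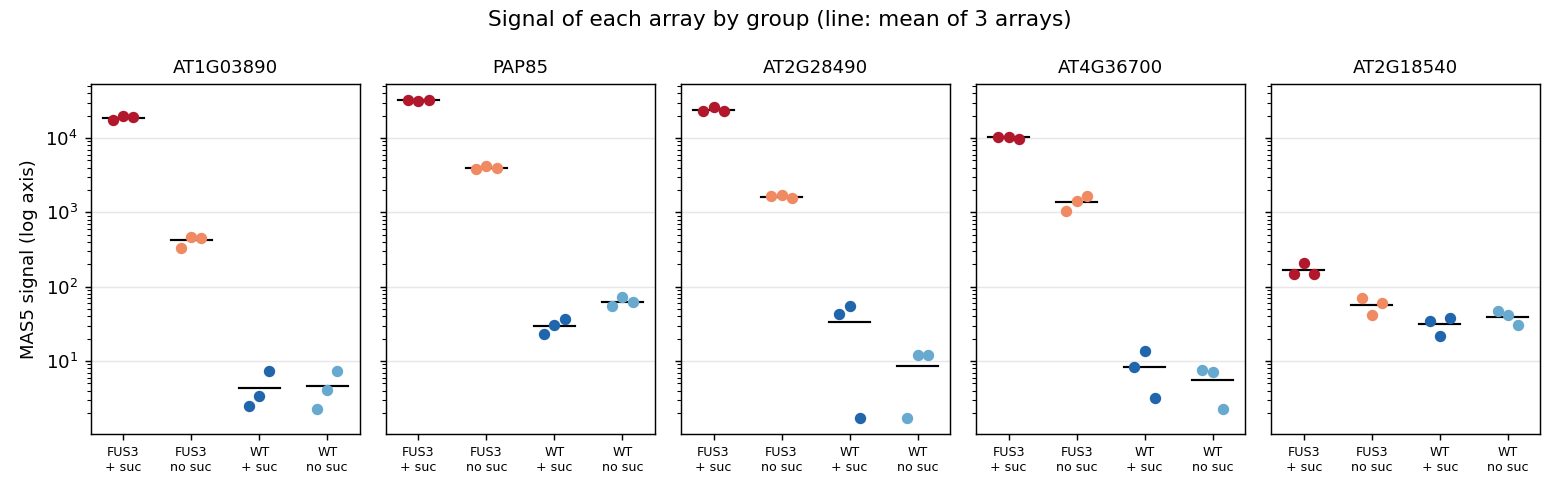
MAS5 signal (log axis) of the 5 storage globulin and cupin genes on each of the 12 arrays, by group, with the mean of 3 arrays as a line. In 4 genes both FUS3 groups lie above all WT arrays, and the FUS3 arrays of AT2G18540 lie above WT of the same medium with sucrose, where the lowest reads 149, and overlap with it without sucrose. Over all tested probe sets, all FUS3 arrays lay above all WT arrays in 17.6% without sucrose and in 25.2% with sucrose.

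Spread between replicates differed between genes and groups. In FUS3 with sucrose the coefficient of variation was 1.74% for PAP85, 3.21% for AT4G36700, 5.29% for AT1G03890, 6.52% for AT2G28490 and 20.2% for AT2G18540 (n = 3 each). In FUS3 without sucrose it was 4.26% for PAP85, 22.7% for AT4G36700, 17.8% for AT1G03890, 5.18% for AT2G28490 and 25.1% for AT2G18540 (n = 3 each). Within the FUS3 line AT2G18540 thus had the widest relative spread on either medium. In WT with sucrose it was 22.4% for PAP85, 63.3% for AT4G36700, 59.1% for AT1G03890, 84.3% for AT2G28490 and 26.5% for AT2G18540 (n = 3 each). In WT without sucrose it was 13.1% for PAP85, 51.8% for AT4G36700, 55.9% for AT1G03890, 69.3% for AT2G28490 and 21.2% for AT2G18540 (n = 3 each). Changes below are log2 differences of signal + 16, with the moderated standard error (SE) of limma, and a Benjamini-Hochberg adjusted p under 0.05, taken over all 22746 probe sets of a comparison, counts as a call. The 16 added holds down the changes of genes that are near 0 in WT, so the ratio of mean signals is larger than the log2 change gives. Precision is limited by having 3 arrays a group.

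The first comparison asked what the FUS3 line does without added sugar. Of the 5 genes 4 rose and none fell, against 9.50% of all tested probe sets that rose and 7.03% that fell (16.5% called in all), and the median change of the 5 was 5.66, against 0.02 over all probe sets. AT2G28490 rose by 6.10 (SE 0.37, adjusted p = 9.15e-08 in limma), and its mean signal was 1634 ± 84.6 in FUS3 and 8.64 ± 5.99 in WT (SD, n = 3 each). AT4G36700 rose by 5.99 (SE 0.19), at 1375 ± 312 in FUS3 and 5.65 ± 2.93 in WT. PAP85 rose by 5.66 (SE 0.11), at 3985 ± 169.6 in FUS3 and 63.3 ± 8.32 in WT. AT1G03890 rose by 4.40 (SE 0.17), at 422 ± 75.3 in FUS3 and 4.57 ± 2.56 in WT. AT2G18540 had a change of 0.39 (95% interval -0.11 to 0.89, adjusted p = 0.299 in limma), and its groups overlapped.

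With sucrose all 5 genes rose in FUS3 over WT, against 18.9% of all tested probe sets that rose and 19.6% that fell (38.5% called in all), and the median change was 9.16, against 0.01 over all probe sets. AT1G03890 rose by 9.85 (SE 0.17, adjusted p = 2.02e-14 in limma), at 18740.2 ± 992 in FUS3 and 4.41 ± 2.61 in WT (SD, n = 3 each). PAP85 rose by 9.47 (SE 0.11), at 32316 ± 562 in FUS3 and 29.9 ± 6.70 in WT. AT2G28490 rose by 9.16 (SE 0.37) and AT4G36700 by 8.73 (SE 0.19). AT2G18540 rose by 1.96 (SE 0.23, adjusted p = 1.20e-05 in limma), at 169 ± 34.1 in FUS3 and 31.4 ± 8.33 in WT.

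**Figure D2:**
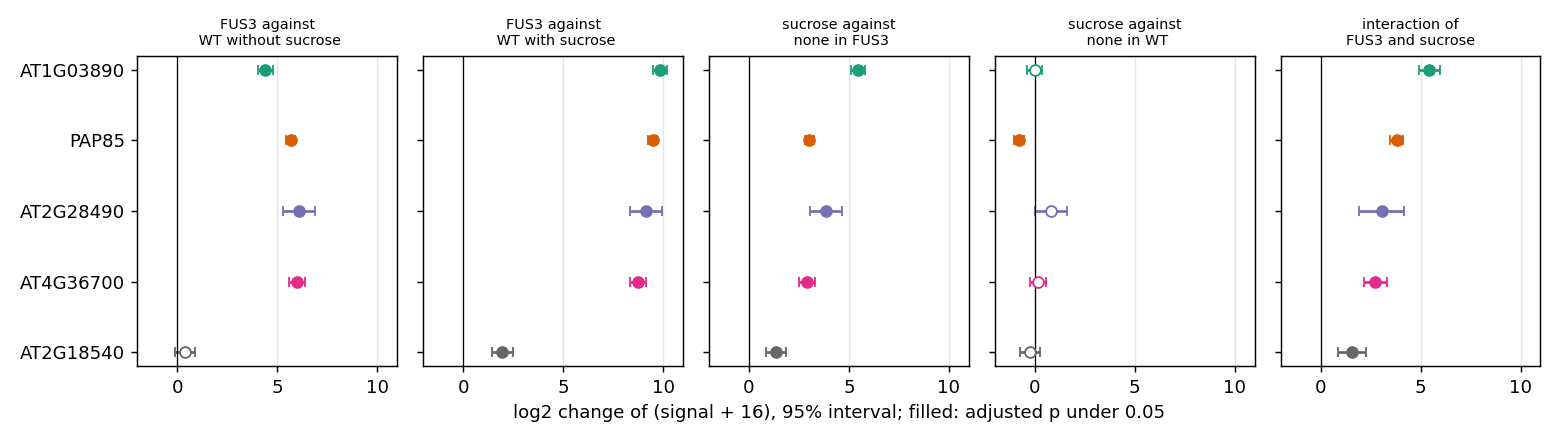
Log2 change of signal + 16 for each gene in the 5 comparisons, with its 95% interval. Filled points passed at an adjusted p under 0.05: 4 of 5 genes without sucrose, 5 of 5 with sucrose, 5 of 5 for sucrose in FUS3, 1 of 5 for sucrose in WT and 5 of 5 for the interaction. In the same order, 16.5%, 38.5%, 39.3%, 26.0% and 23.1% of all tested probe sets were called in either direction.

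The 2 comparisons between the lines share no array, so they can be set against each other. With 16 added, AT1G03890 had the smallest increase of the 4 strong genes without sucrose and the largest with sucrose. The order of the 4 depends on how signals near 0 are treated: with signals under 100 set to 100, the change with sucrose was 8.34 for PAP85, 7.90 for AT2G28490, 7.55 for AT1G03890 and 6.67 for AT4G36700. On that scale the changes without sucrose were 5.32 for PAP85, 4.03 for AT2G28490, 3.76 for AT4G36700 and 2.06 for AT1G03890. With 1 added, PAP85 had the smallest change of the 4 without sucrose, 5.96, against 6.33 for AT1G03890. Differences between these genes were not tested.

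**Figure D3:**
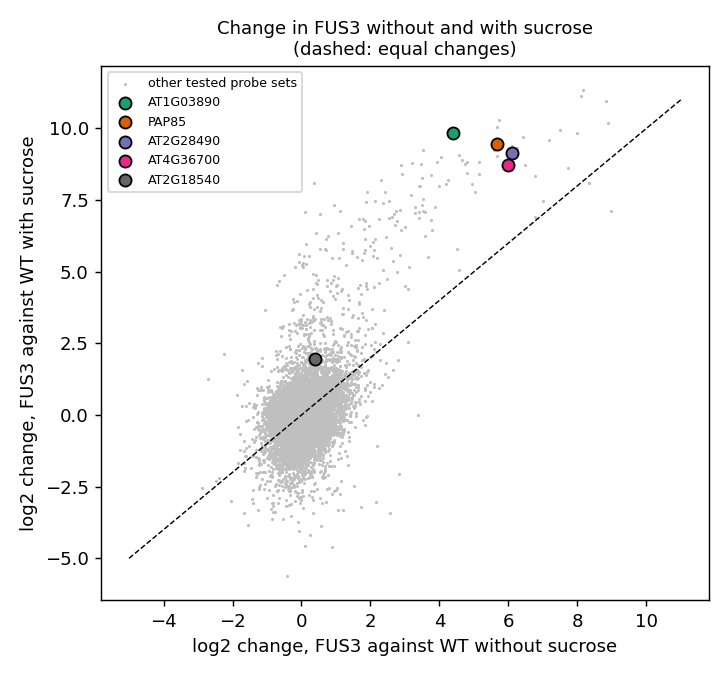
Log2 change in FUS3 over WT with sucrose (vertical) against that without sucrose (horizontal) for all 22746 tested probe sets, with the 5 genes marked. All 5 lie above the dashed line of equal changes, AT1G03890 at 9.85 against 4.40 and AT2G18540 at 1.96 against 0.39. Over all tested probe sets the median difference of the 2 changes, which is the interaction, was -0.01.

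Sucrose was next compared with no sucrose within the FUS3 line, where the 4 strong genes are read far from 0 on both media. All 5 genes rose with sucrose, against 21.8% of all tested probe sets that rose and 17.5% that fell (39.3% called in all), and their median change was 3.02, against 0.04 over all probe sets. AT1G03890 rose by 5.43 (95% interval 5.08 to 5.79, adjusted p = 1.57e-10 in limma), and its mean signal with sucrose was 44.4 times that without. Over the 9 pairs of an array with and an array without sucrose this ratio lay between 37.5 and 58.4. AT2G28490 rose by 3.86 (95% interval 3.06 to 4.66), a ratio of 14.7 with pairs between 13.5 and 16.7. The intervals use a spread shared by all groups, WT included. For AT2G28490 the SE was 0.37, against 0.076 in a fit on the FUS3 groups alone.

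PAP85 rose by 3.02 (95% interval 2.78 to 3.25), a ratio of 8.11 with pairs between 7.67 and 8.61. AT4G36700 rose by 2.90 (95% interval 2.49 to 3.32), a ratio of 7.42 with pairs between 5.88 and 9.95. AT2G18540 rose by 1.34 (95% interval 0.83 to 1.84, adjusted p = 3.66e-04 in limma), a ratio of 2.94 with pairs between 2.11 and 4.95. The pair ratios of AT1G03890 thus lay above those of the other 4 genes, those of PAP85 and AT4G36700 ran into each other, and those of AT2G18540 lay below the rest. This comparison uses the same FUS3 arrays as the comparisons with WT.

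In WT, sucrose did not move these genes together. PAP85 fell by 0.79 (SE 0.11, adjusted p = 1.08e-04 in limma), at 29.9 ± 6.70 with sucrose and 63.3 ± 8.32 without (SD, n = 3 each), as 1 of 5 genes, against 10.1% of all tested probe sets that fell and 15.9% that rose (26.0% called in all). All of these PAP85 signals are under 100, and with signals under 100 set to 100 no difference is left to measure. In a fit on the WT groups alone the SE of PAP85 was 0.21 (adjusted p = 0.0268 in limma). AT2G28490 had a change of 0.80 (95% interval 0.00 to 1.60, adjusted p = 0.138 in limma), which passed at 1.42 (adjusted p = 9.89e-05 in limma) without replicate 3 of WT with sucrose. Its WT signals are all under 100 as well, so the floor of 100 leaves no difference there either. AT4G36700 had 0.16 (95% interval -0.25 to 0.57), AT1G03890 -0.012 (95% interval -0.37 to 0.35) and AT2G18540 -0.24 (95% interval -0.74 to 0.27). The median change of the 5 was -0.01, against 0.02 over all probe sets.

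The study's design names the interaction of FUS3 and sucrose, the change between the lines with sucrose minus that without. It passed for all 5 genes, each with the larger change on sucrose, against 9.78% of all tested probe sets in that direction and 13.3% in the other (23.1% called in all). AT1G03890 had an interaction of 5.45 (SE 0.24, adjusted p = 7.55e-09 in limma), PAP85 of 3.81 (SE 0.16), AT2G28490 of 3.06 (SE 0.53, adjusted p = 7.01e-04 in limma), AT4G36700 of 2.74 (SE 0.27) and AT2G18540 of 1.57 (SE 0.33, adjusted p = 0.00315 in limma). The median of the 5 was 3.06, against -0.01 over all probe sets. On the linear scale, the mean signal of FUS3 without sucrose plus the change of WT with sucrose gives 422 for AT1G03890, and the observed mean in FUS3 with sucrose was 44.4 times that sum. The observed mean was 14.5 times the sum for AT2G28490, 8.18 times for PAP85, 7.40 times for AT4G36700 and 3.43 times for AT2G18540. As WT signals lie near 0, the sums are close to the means of FUS3 without sucrose. The ratios thus largely repeat those of sucrose over none in FUS3 and are no separate result.

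Since WT signals lie near 0, the treatment of low signals moves the values. For AT1G03890 the interaction was 5.53 with 1 added, 5.29 with 64 added and 5.49 with signals under 100 set to 100. For AT2G28490 it was 2.59 with 1 added, which did not pass (adjusted p = 0.145 in limma), 3.44 with 64 added and 3.87 with signals under 100 set to 100. PAP85 went the other way, at 4.09 with 1 added and 3.02 with signals under 100 set to 100, and so did AT2G18540, at 1.89 and 0.74. AT1G03890 had the largest interaction of the 5 genes under each of these 4 treatments. At the floor of 100 all WT signals of the 5 genes are equal. The interaction there is the change with sucrose in FUS3 and no separate check.

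**Figure D4:**
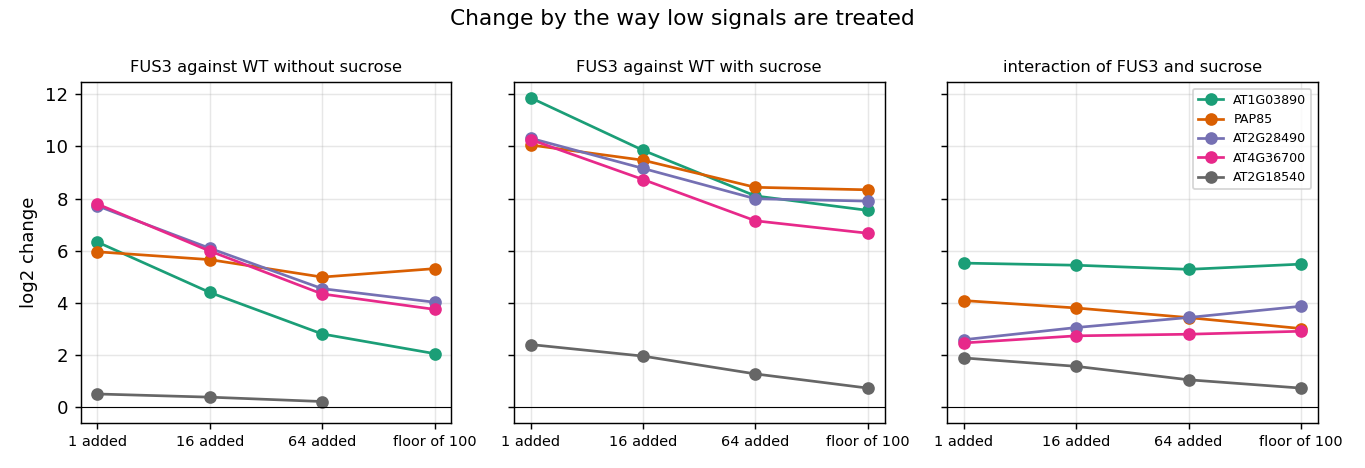
Log2 change of the 5 genes in FUS3 over WT without sucrose, with sucrose and in the interaction, with 1, 16 or 64 added to each signal or with signals under 100 set to 100. The change of AT1G03890 over WT without sucrose is smallest at the floor, 2.06, while that of PAP85 is smallest with 64 added, 4.99, and 5.32 at the floor. The interaction of AT1G03890 lies between 5.29 and 5.53; AT2G18540 has no value at the floor without sucrose because all its signals are under 100 there.

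Likeness between the genes was described by the root mean square difference of their log2 profiles over the 12 arrays, each profile taken relative to its own mean in WT without sucrose. PAP85 and AT4G36700 were the closest pair of members, at 0.57 log2 units, with 2 other probe sets nearer to PAP85. AT2G28490 lay 0.75 from AT4G36700, and AT1G03890 lay 0.95 to 1.08 from the other 3 strong genes. PAP85 and AT2G28490 were the farthest apart of the 4 strong genes, at 1.17. AT2G18540 lay 4.38 to 5.07 from the 4 others, and 843 to 1041 probe sets were nearer to them.

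The named genes nearest to each member were found by the same measure, and up to 5 probe sets that name no single gene lay nearer. For AT1G03890 they were ATOEP16-2, for an outer plastid envelope protein of seeds, at 0.40, and AT5G45690 at 0.50. ATOEP16-2 had mean signals of 14625 in FUS3 with sucrose, 576 in FUS3 without, 15.1 in WT with sucrose and 7.08 in WT without. For PAP85 they were AT1G65090 at 0.53 and AT4G36700. For AT2G28490 they were AT3G54940, a papain-type cysteine protease gene, at 0.48 and the late embryogenesis abundant protein gene AT3G15670 at 0.68. AT3G54940 was also the nearest to AT4G36700, at 0.44, followed by the thionin gene AT2G15010 at 0.49. The 2 nearest to AT2G18540 were AT1G62500, of the lipid transfer and 2S albumin superfamily, at 0.24, and the bHLH factor gene AT3G19500 at 0.27. AT1G62500 had mean signals of 5594 in FUS3 with sucrose, 1952 in FUS3 without, 1808 in WT with sucrose and 1762 in WT without, so that its level in WT was far from 0.

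Other storage protein genes and the genes that regulate, cut and sort their products were read from lists of known members. Of 4 listed 12S globulin genes only AT1G03890 was measured by a probe set of its own, and the 5 listed 2S albumin genes, the 4 listed repressors and 11 germin-like cupin genes were not analysed here. All 6 listed vicilin-like and other seed cupin genes were measured, the 4 members and AT1G07750 and AT2G28680. AT1G07750 was expressed in all groups, with mean signals of 1958 ± 59.0 in FUS3 with sucrose, 1751 ± 273 in FUS3 without, 1983 ± 229 in WT with sucrose and 1346 ± 91.1 in WT without (SD, n = 3 each). Its change between the lines was -0.01 (SE 0.11) with sucrose, and without sucrose it rose by 0.37 (SE 0.11, adjusted p = 0.0335 in limma), a call lost under 9 of 22 alternatives (adjusted p up to 0.143), among them leaving out replicate 2 of FUS3 or any array of WT without sucrose. It rose by 0.55 (SE 0.11) with sucrose in WT. AT2G28680 was near 0 in all groups, at 20.1 ± 14.9 in FUS3 with sucrose and 8.57 ± 3.54 in WT without sucrose, and passed in no comparison.

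Vacuolar processing enzymes make the cut that turns 12S precursors into their mature chains, and the beta enzyme is known as the one of seeds. BETA-VPE (AT1G62710) was read at 12287 to 13184 in FUS3 with sucrose and at 907 to 1084 in FUS3 without sucrose. In WT it was read at 387 to 609 with sucrose and at 163 to 249.9 without sucrose, so that the 4 groups did not overlap. It rose in FUS3 over WT by 4.60 (SE 0.16, adjusted p = 3.13e-11 in limma) with sucrose and by 2.24 (SE 0.16) without. With sucrose over none it rose by 3.67 (SE 0.16) in FUS3 and by 1.31 (SE 0.16) in WT, and the interaction was 2.36 (SE 0.23, adjusted p = 4.29e-06 in limma).

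GAMMA-VPE (AT4G32940), the enzyme of vegetative vacuoles, moved the other way. Its mean signal was 3375 ± 185 in FUS3 with sucrose, 5272 ± 397 in FUS3 without, 8301 ± 1266 in WT with sucrose and 7145 ± 269 in WT without (SD, n = 3 each). It fell in FUS3 by 1.28 (SE 0.10, adjusted p = 1.73e-07 in limma) with sucrose and by 0.44 (SE 0.10, adjusted p = 0.00811 in limma) without. ALPHA-VPE rose with sucrose by 0.88 (SE 0.31, adjusted p = 0.0372 in limma) in FUS3 over WT, a call lost under 8 of 21 alternatives (adjusted p up to 0.124). Among arrays with sucrose, leaving out FUS3 replicate 1, FUS3 replicate 2, WT replicate 1 or WT replicate 3 ended it. DELTA-VPE had -0.13 (SE 0.32) and MAG2, for a protein of storage protein export from the endoplasmic reticulum, 0.10 (SE 0.18) in the same comparison. Of the 14 listed processing and sorting genes these 5 were measured, and with sucrose 2 rose and 1 fell in FUS3 over WT, with a median of 0.10, against 18.9% of all tested probe sets that rose and 19.6% that fell.

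Of 14 listed regulators of storage protein genes 2 were measured, both bZIP factor genes. EEL (AT2G41070) was read at 2443 ± 167 in FUS3 with sucrose, 392 ± 42.8 in FUS3 without, 175 ± 17.2 in WT with sucrose and 144 ± 24.3 in WT without (SD, n = 3 each). It rose in FUS3 over WT by 3.69 (SE 0.14) with sucrose and by 1.36 (SE 0.14) without, with an interaction of 2.33 (SE 0.19, adjusted p = 1.16e-06 in limma). BZIP53 (AT3G62420), for a partner of bZIP10 and bZIP25 on storage protein promoters, was read at 4453 ± 346 in FUS3 with sucrose and 4697 ± 189 in WT without sucrose. It had changes of -0.05 (95% interval -0.21 to 0.12) with sucrose and -0.01 (95% interval -0.17 to 0.16) without. BBM, the only measured one of 3 listed embryo markers, was read at 336 to 384 in FUS3 with sucrose and at no more than 71.7 on any other array.

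**Figure D5:**
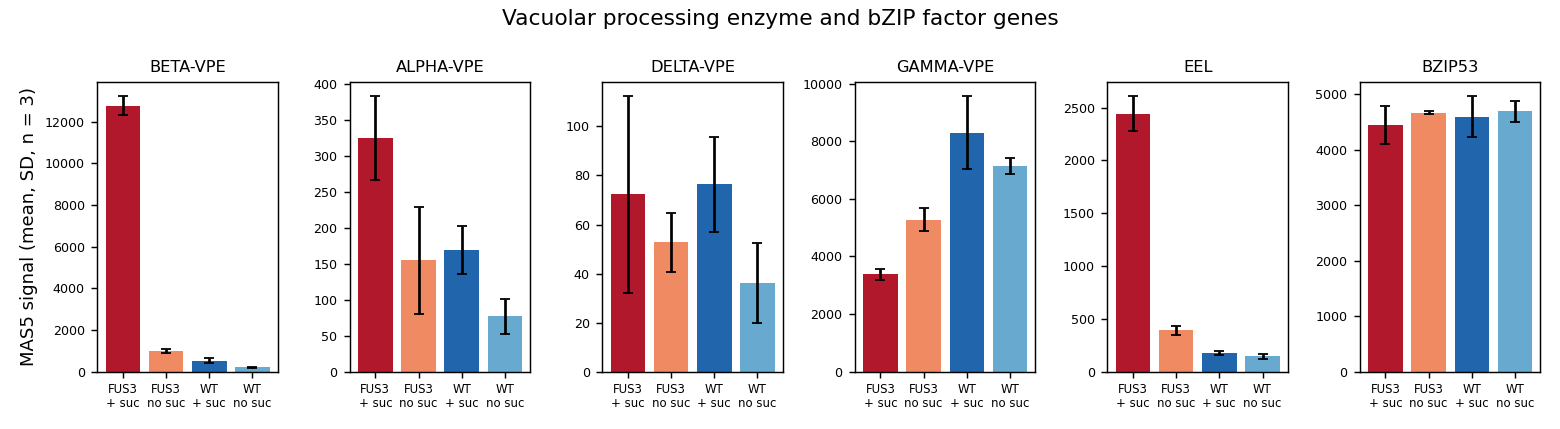
Mean MAS5 signal (SD, n = 3) of 4 vacuolar processing enzyme genes and of the bZIP factor genes EEL and BZIP53 in the 4 groups, each panel with its own axis from 0. BETA-VPE is highest in FUS3 with sucrose at 12778, GAMMA-VPE lowest there at 3375, and BZIP53 lies between 4453 and 4697 in all groups.

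Genes beside the members on the chromosomes were looked at after the values of the members were seen. Of 30 protein-coding genes up to 3 places from a member in TAIR10.1, 10 were measured. Their changes in FUS3 over WT lay between -0.18 and 0.63 with sucrose, where 4 rose, against 18.9% of all tested probe sets. They lay between -0.07 and 0.64 without sucrose, where 3 rose, against 9.50% of all tested probe sets. The largest with sucrose was that of AT2G18520, 2 places from AT2G18540, at 0.63 (SE 0.13).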

How the data were processed

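Total RNA of seedlings was read on 12 ATH1 arrays. The authors made the intensity values with MAS5 in Affymetrix Expression Console, per the submitters' processing notes; the sources used here give no versions. Deposited values are linear, 1 intensity per probe set and array, with no detection calls. Of 22810 probe sets 64 controls were left out. To each signal 16 was added before log2. The means of 4 groups were fitted in 1 linear model with limma 3.58.1 (R 4.3.3, variance trend), 5 contrasts were taken, and p-values were adjusted over 22746 probe sets. Plots used Python 3.11.15 and matplotlib 3.10.9. Gene names come from the platform's probe table, where 13513 tested probe sets name 1 gene, and from TAIR10.1 locus tags. The files name no genome build, so no coordinates are given.

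The members and the gene lists were chosen with earlier results of these data known. Named genes are the 5 members, the 2 nearest named genes of each, and measured list members. Where several probe sets read a list gene, the brightest was taken. The germin-like list holds genes whose reference name includes germin or cupin, 12 in all, less 1 F-box gene that shares such a name. Alternatives were 1 or 64 added, a floor of 100, quantile normalization, array medians subtracted, leaving out the lowest 40% of probe sets, a fit on the compared groups alone, the replicate number as a block, the unmoderated linear model (the two-way analysis of variance that the study names), no trend, and leaving out each array. That these were also run for list genes, and that neighbouring genes were read, was decided after seeing the data. The main fit of all 12 arrays was tested on simulated data first, and the alternatives were not tested in this way.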

Additional observations from a re-analysis of the deposited data

Results flagged for a closer look

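Each of the 5 genes changed more in FUS3 over WT with sucrose than without, by the interaction term of the limma model. Of all tested probe sets 9.78% were called in that direction and 13.3% in the other. The interaction was 5.45 for AT1G03890, 3.81 for PAP85, 3.06 for AT2G28490, 2.74 for AT4G36700 and 1.57 for AT2G18540, in log2 units of signal + 16. That of AT2G28490 did not pass with 1 added in place of 16 (2.59, adjusted p = 0.145 in limma). With 3 arrays a group, no single array was tested as standing apart from its group.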

How the results depend on the processing

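Of the 5 genes 4 were called without sucrose and 5 with sucrose, for sucrose in FUS3 and for the interaction, and these counts were the same without each array in turn. In the same order, 16.5%, 38.5%, 39.3% and 23.1% of all tested probe sets were called in the main fit. With 1 added the count for the interaction was 4, since AT2G28490 did not pass (2.59, adjusted p = 0.145 in limma). With the lowest 40% of probe sets left out, AT1G03890 and AT2G18540 were no longer in the table, and 3 genes were called in each of these comparisons. These 3 stay in the table through their FUS3 signals, so that their calls there support nothing further. For sucrose in WT, where 26.0% of all tested probe sets were called, the count of 1 was 0 with a floor of 100 and 1 to 2 without single arrays. Under that floor all signals in WT are equal and give no value for a gene, as for AT2G18540 without sucrose. AT1G03890 changed sign with sucrose in WT, uncalled throughout: -0.012 became 0.042 with quantile normalization and lay between -0.11 and 0.082 without single arrays, above 0 without replicate 1 or 2 of WT with sucrose or replicate 3 of WT without. Subtracting array medians moved the median of all probe sets by -0.15 in both sucrose comparisons, and the share of calls that were higher became 45.4% of 3830 (57.5% before) in FUS3 over WT without sucrose, 37.8% of 8610 for sucrose in FUS3 (55.6% before) and 35.5% of 6568 for sucrose in WT (61.1% before), without changing a call of the 5 genes. Of all probe sets 3758 were called in FUS3 over WT without sucrose, and 2418 without replicate 1 of WT without sucrose. Replicate numbers were not taken to pair the arrays, since the labels tie no number to a shared source and deviations of arrays of the same number correlated at -0.00729 to 0.111 over 18 pairs of arrays, with 1 pair over 0.1. As a hint from the data, not the design, 10 of 12 arrays correlated best with their own number. With a replicate block no call of the 5 genes changed, the interaction of AT1G03890 stayed at 5.45 (adjusted p = 4.20e-08 in limma) and 5550 probe sets were called for the interaction, against 5253 without the block. Signals near 0 in WT limit how far each increase over WT can be sized.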
